A study of Mus musculus with 6 samples.

Results

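The genes described here encode the structural proteins of the basement membrane and 2 matrix proteins found with it: the laminin chains Lama1, Lama5, Lamb1 and Lamc1, the collagen IV chains Col4a1 and Col4a2, the linker nidogen Nid1, the proteoglycan perlecan Hspg2, the collagen-binding protein Sparc and fibronectin Fn1. They were chosen by symbol, 10 of the 23999 gene symbols in the table, and all 10 were among the 14458 genes with enough reads to be tested. The source was polyA RNA of cultured murine ESC, embryonic stem cells, which can give rise to every tissue of the embryo proper. One group was kept for 6 days with 4-hydroxytamoxifen, written 4OHT (n = 3), which activates Cre fusions to a mutated oestrogen receptor, and the other for 6 days with the vehicle ethanol (n = 3). By their labels both groups carried the floxed -5 element and an added mouse Nanog gene with a V5 tag, so the controls share both. The series title places the element in the study of a Nanog enhancer, and the labels used here name neither the Cre driver nor whether the replicates are separate cultures or clones. The p-values therefore measure the spread between these samples, which may be technical.

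A basement membrane is a thin sheet of matrix on which epithelial cells sit. Laminins, each a trimer of 1 alpha, 1 beta and 1 gamma chain, polymerise on the cell surface through integrins and dystroglycan, and collagen IV trimers form a second network that gives the sheet its strength. Nidogen and perlecan tie the networks together, SPARC binds collagen IV in the matrix, and fibronectin forms fibrils that integrins with the alpha 5 and alpha v chains bind. In the early mouse embryo the primitive endoderm and its parietal derivative are known for abundant production of laminin, collagen IV and SPARC, and the epiblast beside them rests on the same sheet.

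The libraries held 515388 counts in 4OHT replicate 2, 55194644 and 31307423 in 4OHT replicates 1 and 3, and 20030423 to 52250671 in the vehicle libraries. One read in 4OHT replicate 2 was worth 1.91 CPM (a read count scaled to a common library total, with TMM factors), against 0.0183 to 0.0498 CPM in the 5 other libraries. Nanog, the gene whose enhancer the study concerns, stood at 177, 172 and 194 CPM in 4OHT cells, against 631, 659 and 640 CPM in vehicle cells, so all 4OHT libraries lay below all vehicle libraries. The Nanog count may include transcripts of the added copy. The stem cell markers Pou5f1, Sox2, Zfp42 and Esrrb averaged 1121, 883, 673 and 821 CPM in 4OHT cells and 1283, 786, 686 and 799 CPM in vehicle cells, all at high levels.

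Of the 10 genes, 9 rose after 4OHT and Sparc did not pass the test. Neither edgeR nor DESeq2 called any of the 10 lower, and edgeR's unadjusted p of Sparc was also above 0.05. The background is 11.9% of all tested genes called higher and 10.5% called lower (edgeR quasi-likelihood test, Benjamini-Hochberg adjusted p under 0.05). The rises ran from 1.26-fold for Lamb1 to 2.27-fold for Col4a2. In the same 9 genes every 4OHT library lay above every vehicle library, a pattern that 14.7% of all tested genes showed. The median log2 fold change was 0.57 over the 10 genes and 0.00 over all tested genes (-0.00262). Among the 6725 tested genes at least as abundant as the lowest of the 10, 12.9% were called higher, and 7.45% of all tested genes were called with a log2 fold change at least as large as that of Lamb1. Without the shallow 4OHT replicate 2 the count was again 9 higher and 0 lower, and it was the same with the replicate number as a block and with DESeq2, where the background was 3.93% higher and 2.83% lower. In bulk RNA, more cells of a kind and more RNA per cell cannot be told apart.

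**Figure D1:**
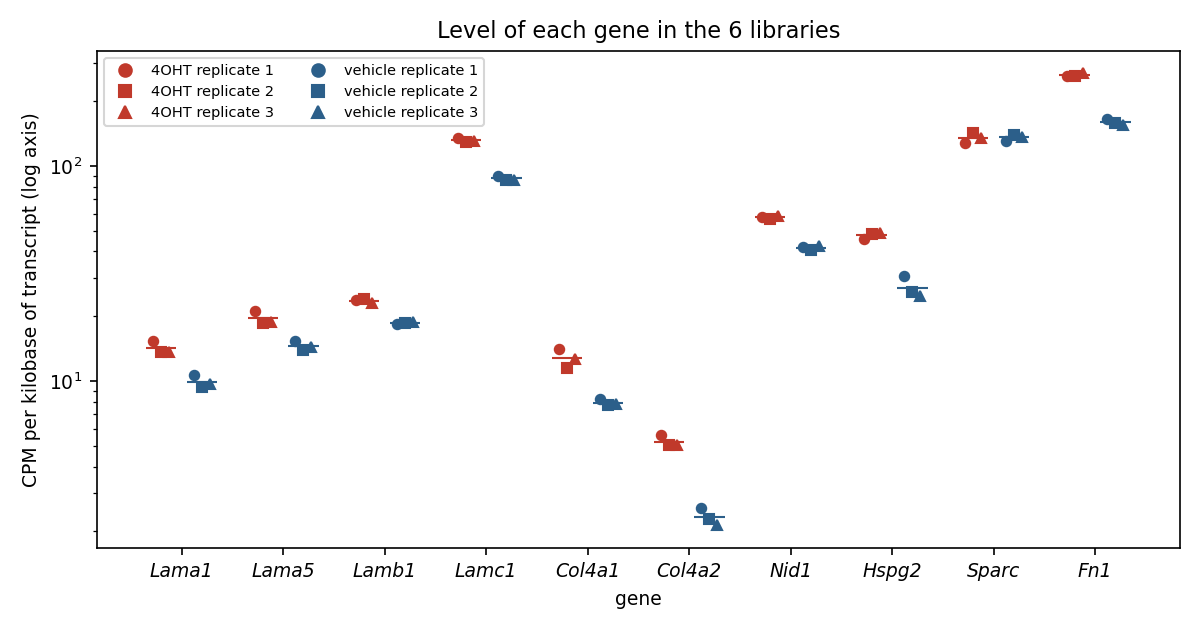
Level of each of the 10 genes in the 6 libraries, in CPM per kilobase of transcript on a log axis, with 4OHT in red and vehicle in blue; points are libraries, marked by replicate, and lines are group means. In 9 genes the 3 4OHT points lie above the 3 vehicle points, and in Sparc they overlap.

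The laminin alpha chains rose by similar amounts. Lama1, the alpha chain typical of the earliest embryonic basement membranes, stood at 146, 129.8 and 130.0 CPM in 4OHT replicates 1 to 3, against 101, 89.4 and 92.2 CPM in vehicle replicates 1 to 3. The groups did not overlap, and replicate 1 was the highest library of each. On the log2 scale the fold change came to 0.54 (SE 0.07; 95% interval 0.40 to 0.68; edgeR adjusted p = 4.53e-06). Lama5, the alpha chain that is widespread in later epithelia, stood at 242, 212 and 215 CPM in 4OHT cells, against 175, 158 and 163 CPM in vehicle cells. Again the groups were apart and replicate 1 was highest in both. The change amounted to 0.45 on the log2 scale (SE 0.07; 95% interval 0.31 to 0.59; edgeR adjusted p = 3.08e-05).

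Because both alpha chains join the same beta and gamma chains, their balance can be read within each library, where library scaling cancels. Per kilobase of transcript, Lama1 made up 42.0%, 42.3% and 42.0% of the summed Lama1 and Lama5 level in 4OHT cells, against 40.8%, 40.3% and 40.3% in vehicle cells. The shares did not overlap, but the difference of 1.62 percentage points is small. An exact two-sided permutation test gave p = 0.1, the smallest value that 3 against 3 samples allow. Of 5 ratios between members tested in this way, 4 had an exact permutation p of 0.1 (0.125 after Benjamini-Hochberg adjustment over the 5), so no ratio could pass the threshold.

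Lamb1, the beta chain of these trimers, had the smallest of the 9 rises. It stood at 137, 139 and 133 CPM in 4OHT cells, against 106, 107 and 109 CPM in vehicle cells. Replicates were closely spaced in both groups, with a coefficient of variation of 2.42% in 4OHT and 1.11% in vehicle cells, and the groups did not overlap. On the log2 scale the fold change came to 0.34 (SE 0.06; 95% interval 0.22 to 0.46; edgeR adjusted p = 0.000205). Lamc1, the gamma chain, stood at 1022, 987 and 992 CPM in 4OHT cells, against 687, 653 and 658 CPM in vehicle cells. All 3 4OHT values were well above the highest vehicle value, and the spread within each group was small. The change amounted to 0.59 on the log2 scale (SE 0.06; 95% interval 0.47 to 0.71; edgeR adjusted p = 1.57e-07).

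The gamma chain was far more abundant than its partners. Per kilobase of transcript, Lamc1 averaged 131 ± 2.54 in 4OHT and 87.4 ± 2.39 in vehicle cells (CPM per kilobase, SD, n = 3 each). On the same scale Lamb1 averaged 23.6 ± 0.571 in 4OHT and 18.6 ± 0.207 in vehicle cells, Lama5 averaged 19.6 ± 1.47 in 4OHT and 14.6 ± 0.770 in vehicle cells, and Lama1 14.2 ± 1.0 in 4OHT and 9.89 ± 0.641 in vehicle cells. The ratio of Lamc1 to Lamb1 was 5.65, 5.37 and 5.66 in 4OHT cells, against 4.90, 4.62 and 4.59 in vehicle cells, with no overlap (exact two-sided permutation p = 0.1). Lamc1 over the summed alpha chains was 3.66, 4.02 and 4.00 in 4OHT cells, against 3.46, 3.68 and 3.59 in vehicle cells. That last pair of groups overlapped (exact two-sided permutation p = 0.2).

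Collagen IV gave the largest change of all 10 genes. Col4a2 stood at 36.3, 32.4 and 32.4 CPM in 4OHT cells, against 16.5, 14.7 and 13.8 CPM in vehicle cells. Every 4OHT library was far above the highest vehicle library. The rise was 2.27-fold (95% interval 2.00 to 2.57, log2 fold change 1.18, SE 0.09, edgeR adjusted p = 3.26e-09). Col4a1 stood at 93.2, 76.3 and 83.9 CPM in 4OHT cells, against 54.5, 50.9 and 51.7 CPM in vehicle cells. Groups were apart here too, with 4OHT replicate 1 highest. On the log2 scale the fold change came to 0.74 (SE 0.07; 95% interval 0.61 to 0.88; edgeR adjusted p = 5.67e-08). The intervals of the log2 fold changes of Col4a2 and Col4a1 did not overlap.

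The usual collagen IV trimer holds more alpha 1 than alpha 2 chains, and Col4a1 was the more abundant transcript in every library. Per kilobase, Col4a1 over Col4a2 was 2.50, 2.29 and 2.53 in 4OHT cells, against 3.21, 3.38 and 3.66 in vehicle cells. The ratio was lower in every 4OHT library than in any vehicle library (mean 2.44 ± 0.127 in 4OHT and 3.42 ± 0.225 in vehicle cells, SD, n = 3 each; exact two-sided permutation p = 0.1). With coding length in place of transcript length the means were 2.56 in 4OHT and 3.58 in vehicle cells.

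The unequal rise concerns 2 genes that start at the same place. Col4a1 and Col4a2 lie head to head on mouse chromosome 8, and their annotated transcripts share 22 bases at their starts, chr8:11312805-11312826 in RefSeq on GRCm38.p6. This stretch is shown because both genes are read outwards from it, Col4a2 on the plus strand and Col4a1 on the minus strand; capitals mark a GC box, GGGCGG.
Col4a1 and Col4a2 shared start (plus strand): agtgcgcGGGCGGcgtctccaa
These 22 bases are 0.295% of the annotated exon bases of Col4a1 and 0.332% of those of Col4a2, and the use of strand in the counting is not given in the sources used here.

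**Figure D2:**
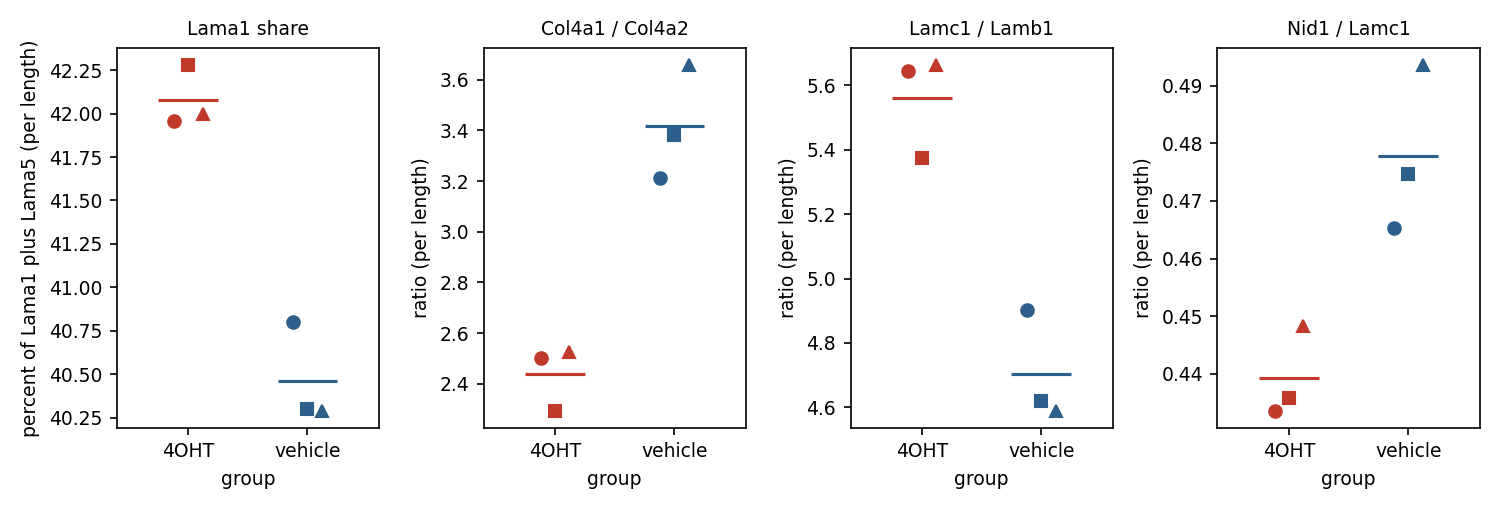
Ratios between genes in each library, per kilobase of transcript, with 4OHT left and vehicle right; points are libraries, marked by replicate as circle, square and triangle for replicates 1 to 3, and lines are group means. The axes do not start at 0. In all 4 panels the groups do not overlap: Lama1 share and Lamc1 over Lamb1 are higher in 4OHT cells, and Col4a1 over Col4a2 and Nid1 over Lamc1 are lower.

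Both genes that link the laminin and collagen networks rose. Hspg2, which encodes the heparan sulphate proteoglycan perlecan, stood at 651, 683 and 692 CPM in 4OHT cells, against 435, 367 and 351 CPM in vehicle cells. Vehicle replicate 1 stood above the other vehicle libraries, with a coefficient of variation of 3.19% in the 4OHT and 11.6% in the vehicle group, yet the groups remained far apart. The rise was 1.75-fold (log2 fold change 0.81, SE 0.07, 95% interval 0.66 to 0.96, edgeR adjusted p = 6.04e-08). Nid1, which encodes nidogen-1, a protein that binds both the laminin gamma 1 chain and collagen IV, stood at 354, 344 and 355 CPM in 4OHT cells, against 255, 248 and 259 CPM in vehicle cells. No 4OHT library came near the vehicle range. The change amounted to 0.47 on the log2 scale (SE 0.06; 95% interval 0.36 to 0.59; edgeR adjusted p = 2.55e-06).

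Relative to its binding partner, Nid1 was lower after 4OHT. The ratio of Nid1 to Lamc1, per kilobase, was 0.434, 0.436 and 0.448 in 4OHT cells, against 0.465, 0.475 and 0.494 in vehicle cells (exact two-sided permutation p = 0.1). Of the exon bases of Nid1, 2.06% overlap the opposite-strand gene Gm48682.

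Fibronectin was the most abundant of the 10 transcripts per length. Fn1 stood at 2182, 2169.8 and 2238 CPM in 4OHT cells, against 1378, 1309 and 1282 CPM in vehicle cells. The 4OHT libraries lay within a coefficient of variation of 1.65%, the vehicle libraries within 3.73%, and the groups were well apart. The rise was 1.66-fold (log2 fold change 0.73, SE 0.06, 95% interval 0.61 to 0.85, edgeR adjusted p = 1.08e-08). Per kilobase of transcript it averaged 264 ± 4.37 in 4OHT and 159 ± 5.94 in vehicle cells (SD, n = 3 each), rank 215 in 4OHT and 426 in vehicle cells among the 13032 tested genes with an annotated length. An opposite-strand gene, Apol7d, overlaps 2.5% of the exon bases of Fn1.

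Sparc stood apart from the other 9. It measured 292, 328 and 308 CPM in 4OHT cells, against 300.1, 321 and 314 CPM in vehicle cells. The groups overlapped, with both the lowest and the highest library among the 4OHT samples. Its change on the log2 scale was -0.03 (SE 0.06; 95% interval -0.16 to 0.09; edgeR adjusted p = 0.746), so that the interval reaches from 0.896-fold to 1.07-fold and lies below that of each of the other 9 genes. Sparc was not a low gene: at 135 ± 7.84 CPM per kilobase in 4OHT and 135 ± 4.57 in vehicle cells (SD, n = 3 each) it ranked 501 in both groups.

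**Figure D3:**
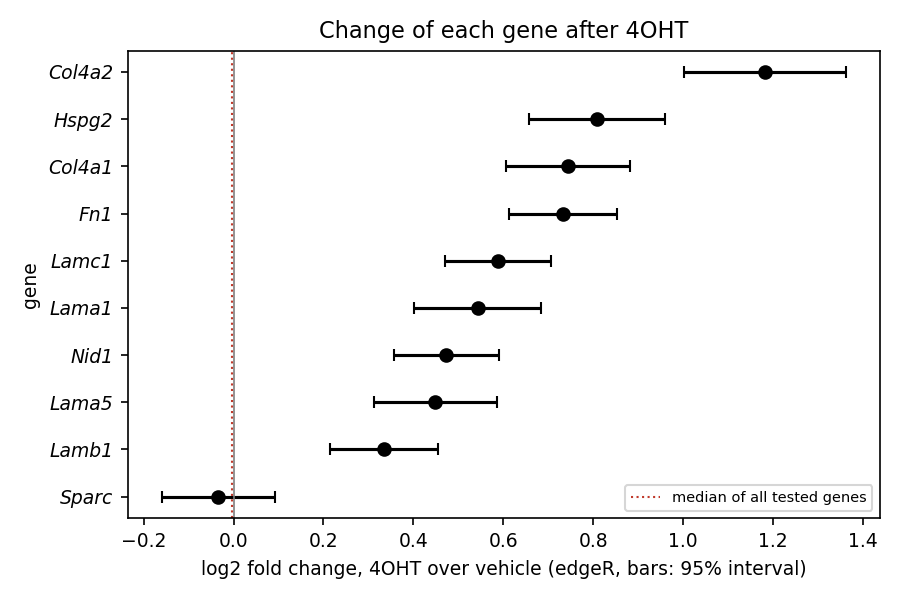
Log2 fold change of each gene, 4OHT over vehicle, with 95% intervals from the edgeR model on the horizontal axis and genes in order of change on the vertical axis. Col4a2 at 1.18 lies to the right of all others, Sparc at -0.03 crosses 0, and the 8 genes between them have intervals that overlap those of their neighbours.

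Ordered by size of change, Col4a2 and Sparc stood clear of their neighbours. From Hspg2 down through Col4a1, Fn1, Lamc1, Lama1, Nid1 and Lama5 to Lamb1, each interval overlapped that of the next gene. These intervals alone therefore do not settle the order of neighbours within these 8. Overlap of intervals is not a test of the difference between 2 genes, which were measured in the same libraries. Genes further apart could be separated. The intervals of Hspg2, Col4a1 and Fn1 (from 0.66, 0.61 and 0.61) lay above those of Nid1, Lama5 and Lamb1 (up to 0.59, 0.59 and 0.46). That of Lamc1 (from 0.47) also lay above that of Lamb1. Levels per length gave another order: Fn1, Sparc, Lamc1, Nid1, Hspg2, Lamb1, Lama5, Lama1, Col4a1 and Col4a2 in 4OHT cells. In vehicle cells the same order held. In 4OHT cells the ranges of 2 pairs of neighbours overlapped, Sparc with Lamc1 (127 to 143 and 129 to 134 CPM per kilobase) and Lama1 with Col4a1 (13.6 to 15.4 and 11.5 to 14.1). In vehicle cells no neighbours overlapped.

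The shallow library alone carried part of this information. In 4OHT replicate 2 the 10 genes had between 17 reads for Col4a2 and 1137 reads for Fn1. Its exact Poisson 95% interval, which covers counting error only, lay above the highest vehicle value for 7 of the 9 genes that rose. The margin was very narrow for Lamb1 (from 109.2 CPM beside 108.7 CPM) and Col4a1 (from 54.52 CPM beside 54.5 CPM). The vehicle value was taken without its own error. The share of all tested genes with such an interval was not computed, so the count has no background. For Lama1 the interval was 101 to 165 CPM beside a highest vehicle value of 101 CPM, and for Lama5 it was 174 to 255 CPM beside 175 CPM, so that library alone does not separate these genes from the vehicle range.

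Promoters are shown for the 4 members that rose and whose window held at least 60 bases in a row outside annotated exons. RefSeq promoter windows on GRCm38.p6 matched 7 of the 10 genes, all but Lama1, Lamc1 and Fn1. Each line gives the longest stretch of the 250 bases before the annotated start that no GENCODE exon covers, 5′ to 3′ on the strand of the gene, with GC boxes (GGGCGG or CCGCCC) and CCAAT boxes (CCAAT or ATTGG) in capitals.
Lama5 (chr2:180225860-180226109, minus strand): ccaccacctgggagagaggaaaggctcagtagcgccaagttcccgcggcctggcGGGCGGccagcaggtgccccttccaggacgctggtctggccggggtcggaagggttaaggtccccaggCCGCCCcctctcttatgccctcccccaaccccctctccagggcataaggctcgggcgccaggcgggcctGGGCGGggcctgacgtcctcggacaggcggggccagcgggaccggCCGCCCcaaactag
Lamb1 (chr12:31265043-31265233, plus strand): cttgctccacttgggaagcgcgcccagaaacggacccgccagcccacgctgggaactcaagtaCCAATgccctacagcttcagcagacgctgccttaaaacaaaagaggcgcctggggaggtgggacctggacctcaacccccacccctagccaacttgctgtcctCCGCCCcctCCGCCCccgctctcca
Nid1 (chr13:13437352-13437550, plus strand): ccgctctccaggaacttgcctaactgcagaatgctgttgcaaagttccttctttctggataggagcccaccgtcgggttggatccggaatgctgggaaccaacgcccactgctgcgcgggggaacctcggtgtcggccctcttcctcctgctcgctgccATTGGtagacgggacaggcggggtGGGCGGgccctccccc
Hspg2 (chr4:137468553-137468768, plus strand): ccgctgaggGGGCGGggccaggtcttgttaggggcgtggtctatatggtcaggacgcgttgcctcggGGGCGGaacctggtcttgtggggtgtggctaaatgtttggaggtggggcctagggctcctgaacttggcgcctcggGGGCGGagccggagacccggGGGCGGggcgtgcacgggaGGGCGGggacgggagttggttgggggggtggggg
In the full windows of 250 bases, searched on both strands, 5 of the 7 genes held a GC box (Lama5, Lamb1, Nid1, Hspg2 and Col4a2), against 32.7% of all 32851 promoter windows. Hspg2 held 5 of them and Lama5 held 4. A CCAAT box was in 4 of the 7 (Lamb1, Nid1, Col4a1 and Col4a2), against 33.8% of all windows. The windows counted for Col4a1 and Col4a2 reach into each other's gene. Neither held 60 bases in a row outside annotated exons. AGATAA, a motif of GATA factors, and ACAAT, a motif of SOX factors, were in none of the 7 windows on either strand, against 9.99% and 27.7% of all windows. The letters of Sparc held none of the 4 motifs. The 6 windows of genes that rose had 62.0% to 74.4% G and C, that of Sparc 54.0%, and the median window 52.4%, and the motif shares were not adjusted for base composition. Any part of these motifs or of base composition in the changes was not tested.

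Other genes of the basement membrane changed less uniformly. Of 26 listed, 19 were tested, 7 rose, 1 fell and 11 did not pass, beside the background of 11.9% higher and 10.5% lower, with a median log2 fold change of 0.21. Nid2, the second nidogen, stood at 629, 669.8 and 669 CPM in 4OHT cells, against 561, 552 and 561 CPM in vehicle cells (log2 fold change 0.23, SE 0.06, edgeR adjusted p = 0.00598). Smoc1, a matrix protein related to SPARC, stood at 20.6, 32.4 and 23.3 CPM in 4OHT cells, against 15.2, 14.3 and 16.8 CPM in vehicle cells (0.52, SE 0.09, edgeR adjusted p = 0.000386). Both were non-overlapping between groups, and so was Frem2, a protein of the epithelial matrix that is needed beneath embryonic skin (log2 fold change 0.61, edgeR adjusted p = 0.00173). Lamb3, the beta chain of the laminin of skin, fell, with 3.62, 1.91 and 3.52 CPM in 4OHT cells against 6.06, 5.03 and 5.90 CPM in vehicle cells (log2 fold change -0.69, edgeR adjusted p = 0.000664). The value of Lamb3 in 4OHT replicate 2 rests on 1 read. DESeq2 did not call Frem2 (adjusted p = 0.131) or Lamb3 (0.241), and without vehicle replicate 2 the edgeR adjusted p of Nid2 was 0.0664. The collagen IV chains Col4a3, Col4a4 and Col4a6 and the laminin chain Lamc3 were too low to be tested.

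Receptors for these matrix proteins went both ways. Of 21 tested, 6 rose, 5 fell and 10 did not pass, beside 11.9% higher and 10.5% lower over all tested genes. The median log2 fold change was 0.03. Ddr2, a receptor tyrosine kinase for collagens, stood at 28.2, 13.4 and 27.3 CPM in 4OHT cells, against 8.78, 7.02 and 7.95 CPM in vehicle cells (log2 fold change 1.76, SE 0.10, edgeR adjusted p = 1.89e-10). Sdc4, a transmembrane proteoglycan that acts beside integrins on fibronectin, stood at 185, 197 and 195 CPM in 4OHT cells, against 126, 124 and 130.1 CPM in vehicle cells (0.59, SE 0.06, edgeR adjusted p = 2.11e-07). Both lay above the vehicle range in all 4OHT libraries. Itga1, the alpha chain of an integrin that binds collagen IV, was low in both groups, at 4.24, 1.91 and 4.28 CPM in 4OHT and 1.76, 1.49 and 1.71 CPM in vehicle cells, with 1 read in 4OHT replicate 2. Its log2 fold change was 1.33 (edgeR adjusted p = 2.48e-06). Itga9, whose integrin binds fibronectin's alternative segment and tenascin, fell to 22.5, 24.8 and 21.3 CPM in 4OHT cells, against 49.2, 49.7 and 46.6 CPM in vehicle cells (log2 fold change -1.14, edgeR adjusted p = 3.98e-10). Itgb1, the shared beta chain of most laminin and fibronectin receptors, averaged 175 ± 9.97 CPM in 4OHT and 174 ± 0.932 CPM in vehicle cells (SD, n = 3 each) and did not pass (log2 fold change 0.04, 95% interval -0.08 to 0.16). The other rises were those of Itgav, Itga5 and the dystroglycan gene Dag1 (log2 fold changes 0.46, 0.19 and 0.31). The other falls were those of Itga3, Bcam, Sdc1 and Sdc3 (-0.35, -0.26, -0.42 and -0.74). Itgb1 and these other genes were named after their values were seen.

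Genes for folding, crosslinking and export of collagen gave 6 rises and 3 falls among 24 tested, with a median log2 fold change of 0.06. The background is again 11.9% higher and 10.5% lower. Loxl2, a lysyl oxidase known to crosslink collagen IV, fell to 9.55, 3.82 and 8.78 CPM in 4OHT cells, against 16.2, 15.5 and 23.0 CPM in vehicle cells (log2 fold change -0.99, SE 0.14, edgeR adjusted p = 1.47e-05). Loxl1, an oxidase of elastic fibres, stood at 4.73, 3.82 and 4.89 CPM in 4OHT cells, against 2.66, 3.18 and 2.51 CPM in vehicle cells (log2 fold change 0.80, edgeR adjusted p = 0.000294). Neither gene overlapped between groups, and both had only 2 reads in 4OHT replicate 2. The prolyl 3-hydroxylase gene Lepre1 and the lysyl hydroxylase gene Plod1, whose products modify collagen in the endoplasmic reticulum, each had a log2 fold change of 0.31 (edgeR adjusted p = 0.00274 and 0.00601). DESeq2 called none of Loxl1, Lepre1 and Plod1 (adjusted p = 0.216, 0.122 and 0.276), and without vehicle replicate 1 the edgeR adjusted p of Plod1 was 0.0591.

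Among matrix proteases and their inhibitors, 5 of 24 tested genes rose, 4 fell and 15 did not pass, with a median log2 fold change of 0.13. Over all tested genes 11.9% were called higher and 10.5% lower. Ctsl, the lysosomal protease cathepsin L, stood at 151, 143 and 168 CPM in 4OHT cells, against 91.1, 93.7 and 92.0 CPM in vehicle cells (log2 fold change 0.78, SE 0.06, edgeR adjusted p = 1.24e-08). Adamts9, a secreted metalloprotease, rose as well (log2 fold change 1.0, edgeR adjusted p = 1.02e-05). Plaur, the receptor of the urokinase plasminogen activator, fell to 7.03, 1.91 and 6.62 CPM in 4OHT cells, against 15.6, 15.2 and 15.6 CPM in vehicle cells (log2 fold change -1.19, edgeR adjusted p = 4.43e-08). In 4OHT replicate 2 Plaur had only 1 read and Adamts9 3 reads. Timp1, an inhibitor of matrix metalloproteases, fell to 14.2, 15.3 and 15.5 CPM in 4OHT cells, against 20.7, 20.9 and 21.0 CPM in vehicle cells (log2 fold change -0.50, edgeR adjusted p = 0.00015). Over these 4 lists together edgeR called 37 genes and DESeq2 16. The shares over all tested genes were 22.4% in either direction with edgeR, and 3.93% higher and 2.83% lower with DESeq2.

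**Figure D4:**
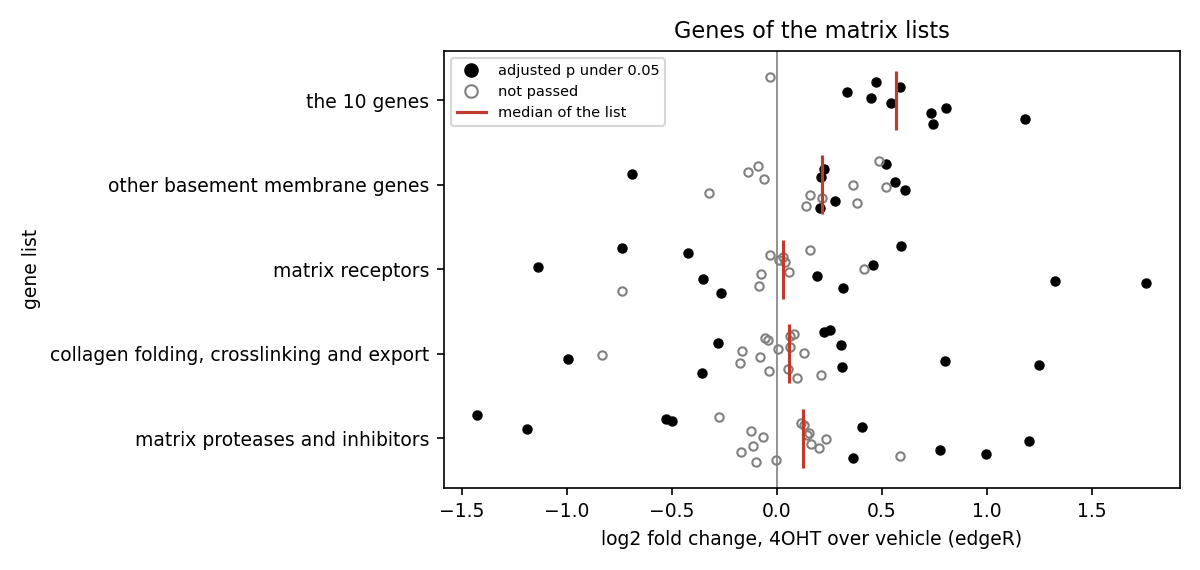
Log2 fold change, 4OHT over vehicle, of every tested gene in the set of 10 and in the 4 matrix lists; filled points passed an edgeR adjusted p of 0.05, open points did not, and red lines are medians. The 10 genes lie to the right of 0 with a median of 0.57 apart from Sparc, while the 4 other lists have medians between 0.03 and 0.21 and points on both sides.

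Markers of cell types that make much matrix were read beside these values. Of 17 primitive and parietal endoderm markers, all tested, 15 rose and 2 did not pass, beside the background of 11.9% higher and 10.5% lower. Their summed level was 166 to 185 CPM in 4OHT and 67.5 to 68.7 CPM in vehicle cells. Gata6, a transcription factor of this lineage, stood at 10.4, 11.5 and 12.1 CPM in 4OHT cells, against 0.548, 0.747 and 0.837 CPM in vehicle cells (log2 fold change 4.05, edgeR adjusted p = 1.44e-12). The endocytic receptor gene Cubn stood at 20.0, 22.9 and 19.0 CPM in 4OHT cells, against 0.434, 0.597 and 0.609 CPM in vehicle cells (5.24, edgeR adjusted p = 5.72e-15). Dab2, an endocytic adaptor, and Srgn, the proteoglycan serglycin, rose by log2 fold changes of 2.38 and 4.80 (edgeR adjusted p = 8.03e-11 and 1.89e-10), with 3 reads and 1 read in 4OHT replicate 2. These markers moved with the laminin, collagen IV and fibronectin genes, while Sparc, itself known to be abundant in parietal endoderm, did not pass the test, and the part of such cells in the rises was not tested.

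Fibroblast markers, which also stand for feeder cells, overlapped between the groups in their summed level. Of 20 listed, 10 were tested, with 1 rise for Col5a2 and 1 fall for Thy1, near the background of 11.9% higher and 10.5% lower. The summed level was 51.8 to 70.6 CPM in 4OHT and 61.3 to 62.0 CPM in vehicle cells. Several markers of the list were present in both groups. Col5a1, a fibrillar collagen chain, averaged 23.5 CPM in 4OHT and 21.6 CPM in vehicle cells, Fbn1, the gene of fibrillin-1, 7.47 CPM in 4OHT and 7.81 CPM in vehicle cells, Pdgfrb, a receptor of platelet-derived growth factor, 7.30 CPM in 4OHT and 7.11 CPM in vehicle cells, and the collagen I chain Col1a1 1.85 CPM in 4OHT and 1.66 CPM in vehicle cells, and none of these passed (edgeR adjusted p = 0.813, 0.101, 0.238 and 0.768). Col5a2 averaged 3.99 CPM in 4OHT and 0.718 CPM in vehicle cells (log2 fold change 2.10, edgeR adjusted p = 2.71e-07), and Thy1 6.67 CPM in 4OHT and 15.9 CPM in vehicle cells (log2 fold change -1.36, edgeR adjusted p = 3.57e-09). The second collagen I chain, Col1a2, averaged 0.364 CPM in 4OHT and 0.314 CPM in vehicle cells and did not pass (log2 fold change 0.90, edgeR adjusted p = 0.0995), with 0 reads in 4OHT replicate 2. All these averages give the shallow 4OHT replicate 2 equal weight. That library held 15 reads of Col5a1, 5 of Fbn1, 5 of Pdgfrb and 1 of Col1a1. The edgeR log2 fold changes were -0.03 for Col5a1, -0.26 for Fbn1, -0.20 for Pdgfrb and 0.10 for Col1a1, so the averages of Col5a1 and Pdgfrb point the other way. Other markers of the list were near 0: Col3a1 had 2 reads over the 4OHT and 1 over the vehicle libraries, Lum had 3 over the 4OHT and 0 over the vehicle libraries, Dcn had 0 over the 4OHT and 2 over the vehicle libraries, and Postn had none in any library. The part of such cells in the rises was not tested.

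Endothelial markers summed to 20.8 to 26.7 CPM in 4OHT and 17.7 to 19.0 CPM in vehicle cells, with Emcn at 0 in every library. Of 5 tested, edgeR called Kdr and Tek higher, by log2 fold changes of 0.61 and 0.32 (adjusted p = 0.0124 and 0.0315), and did not call Erg (-0.84, adjusted p = 0.07) or Sox18 (0.68, adjusted p = 0.138). The background was 11.9% of all tested genes called higher and 10.5% called lower. Kdr had 0 reads in 4OHT replicate 2, so its groups overlapped. Neither call was stable. DESeq2 made neither (adjusted p = 0.768 and 0.442), nor did quantile normalization (adjusted p = 0.712 and 0.113, with 0.31 for Kdr on the log2 scale). Without 4OHT replicate 1 the change of Kdr was 0.42 (edgeR adjusted p = 0.116) and that of Tek 0.13 (edgeR adjusted p = 0.438). The call of Tek was also lost without 4OHT replicate 2 or without any 1 of vehicle replicates 1, 2 and 3 (edgeR adjusted p = 0.0586, 0.0705, 0.0811 and 0.0944), and with library totals only (0.0571).

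**Figure D5:**
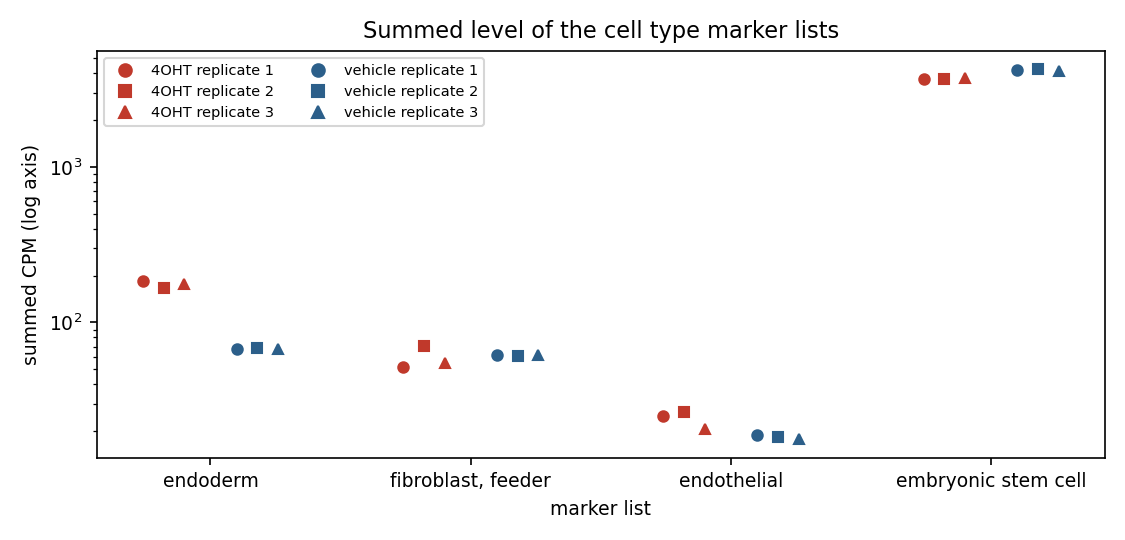
Summed CPM of 4 cell type marker lists in each library, on a log axis, with 4OHT in red to the left of vehicle in blue; symbols mark replicates. The endoderm list is at 166 to 185 CPM in 4OHT and 67.5 to 68.7 CPM in vehicle cells. The fibroblast list overlaps between groups only through the shallow 4OHT replicate 2, and 4OHT replicates 1 and 3 lie below the vehicle libraries.

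Finally, the tested gene whose pattern over the 6 libraries lay closest to that of each member was sought among 9447 candidates, by the root mean square difference of centred log2 CPM. The measure is dominated by the difference between the groups, which all 6 samples share, and is a description only. Closest to Lama1 was Mllt4 (0.00834), to Lama5 Brpf3 (0.0216), to Lamb1 Mtss1 (0.022), to Lamc1 Eif4g3 (0.0271) and to Fn1 Pdk4 (0.028). Col4a1 lay closest to Eif2s2 (0.0393), Hspg2 to Tnrc18 (0.0698), Col4a2 to Cachd1 (0.0715), Nid1 to 2610027K06Rik (0.0301) and Sparc to Pex19 (0.0154). No member was the nearest gene of another. The closest pairs of members by rank were Hspg2 with Fn1 (rank 3), Lama1 with Lama5 (rank 7) and Lama5 with Lama1 (rank 8), while for Sparc the nearest member was Lamb1, at rank 6193.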

How the data were processed

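The deposited table holds raw read counts per gene symbol for all 6 samples, whole numbers whose totals differ between libraries, so no scaling had been done. STAR, DESeq and the mm9 build are named, per the submitters' processing notes, without versions; which counter and annotation they used, and whether strand was taken into account, is not given in the sources used here. Groups and replicate numbers came from the labels.

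Counts were tested with edgeR 4.0.16 (R 4.3.3): filterByExpr with a minimum count of 10 left 14458 of 23999 genes, TMM factors (0.979 to 1.02) scaled the libraries, and the quasi-likelihood fit used all 6 samples with treatment as its only term. Adjustment of p-values ran over all tested genes by the Benjamini-Hochberg method, with a threshold of 0.05. A prior count of 0.125 entered the fold changes (4OHT over vehicle), and intervals are at the 95% level. Ratios between genes were compared with exact permutation tests (scipy 1.17.1). The procedure was tested on simulated counts.

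Levels per kilobase use the longest protein-coding transcript of GENCODE vM21 (GRCm38), since no mm9 annotation was used. No other gene matched 50% of a member's transcript at 95% identity (blastn 2.17.0). Same-numbered samples had positively correlated deviations over 3632 abundant genes (0.57, 0.147 and 0.388 for replicates 1, 2 and 3). However, treated replicate 3 correlated more with vehicle replicate 2 (0.448) than with vehicle replicate 3 (0.388). The data therefore match the samples by number clearly only for replicate 1. No label says what the numbers mark, and the main model leaves them out. No 2 replicates agreed within sampling noise (lowest chi-square per degree of freedom 1.13).

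The 10 genes and all lists were chosen with earlier results of these data known. Named beside the 10 are from each list the up to 4 genes of lowest adjusted p, given 50 reads in all. Zfp42, Itgb1, Itgav, Itga5, Dag1, Itga3, Bcam, Sdc1, Sdc3, Emcn, Pdgfrb, Col5a1, Col1a1, Col3a1, Lum, Dcn, Postn and the untested chains were named after their values were seen. Alternatives were other scalings, DESeq2 1.42.0, limma 3.58.1 (voom, quantile normalization), other filters, the replicate block and leaving out each sample.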

Additional observations from a re-analysis of the deposited data

How the results depend on the processing

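The 9 rises kept their direction and passed the test under each of 14 alternatives (2 other scaling factors, library totals only, DESeq2, quantile normalization in limma-voom, 2 other filters, the replicate block and 6 fits that leave out a sample), with the highest adjusted p, 0.00414, for Lama5. Their log2 fold changes ran from 0.304 for Lamb1 to 1.26 for Col4a2. Sparc did not pass under any of them, and its log2 fold change ran from -0.0714 (without vehicle replicate 1) to 0.0038 (without 4OHT replicate 1) when a sample was left out. With the replicate number as a block, 4073 genes were called in all, 9 of the 10 genes and 42 of the matrix lists, and no call among the 10 changed. Over all genes 3233 were called by edgeR, 977 by DESeq2 and 2088 with quantile normalization, and between 2368 and 3950 when a sample was left out. For the 4 matrix lists the counts were 37 with edgeR, 16 with DESeq2 and 29 to 40 when a sample was left out; the cause was not tested. Of 445 values of the 32 other genes that the naming rule picked from the lists, 23 no longer passed and 1 turned its sign, that of Esrrb with quantile normalization (-0.0402). Leaving out a sample gave a difference of 1.52 to 1.79 percentage points for the Lama1 share and of -1.08 to -0.856 for Col4a1 over Col4a2. Depth in 4OHT replicate 2 limits the genes with few reads there.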
